A study of Mus musculus with 4 samples.

Results

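The proteasome and the cytosolic chaperonin are the machines that destroy and fold proteins in the cytosol, and the mRNAs of their subunits were examined in livers with a deletion of ribosomal protein S6 (Rps6), a c-Myc transgene, or both. Member genes were taken by symbol from the annotation of the array. A probe set was included when its only gene symbol began with Psma to Psmg and a number (Psmb8 and Psmb9 left out) or with Cct2 to Cct8, or was Tcp1. This gave 127 probe sets for 57 genes, 47 with a proteasome symbol and 10 with a chaperonin symbol, of 18194 genes on the array. Where several probe sets measured a gene, the one that was brightest on average across the arrays stood for it. Of the 57 genes, 52 had a mean log2 value of at least 8, and the other 5 were dim.

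Liver RNA was hybridized to 4 Affymetrix mouse arrays, 1 for each of 4 genotypes. ΔS6:c-Myc livers (DS6 Myc in the sample labels) carried Rps6 alleles flanked by lox sites, Albumin-Cre and an albumin-driven c-Myc transgene. ΔS6 livers (DS6) carried the lox alleles and Albumin-Cre without the transgene, Alb-c-Myc livers (Myc) carried the transgene with Rps6 intact, and WT livers had neither change, the study's WT controls being mice with the lox alleles and no Albumin-Cre. Each array received equal amounts of RNA from the livers of 3 non-fasted mice of a mixed hybrid strain at 5 weeks of age, all of them labelled male. Albumin-Cre deletes in hepatoblasts and the cells that descend from them, the deletion is incomplete and mosaic by the study's own description, and the transgene acts in hepatocytes, so each pool mixes deleted, undeleted and other cells.

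The deposited values are log2 expression values made by RMA, a procedure that combines the probes of a probe set into 1 value. A difference of 2 such values is a log2 ratio, and a gene was counted as higher or lower when the ratio reached 1.5-fold, a log2 ratio of 0.585. With 1 array per genotype there is no replicate error, no p-value is given, and counts of members are set beside the percentage of all 18194 genes that passed the same line. The standard deviation between probe sets of 1 gene was 0.27 in ΔS6 over WT, 0.14 in Alb-c-Myc over WT, 0.29 in ΔS6:c-Myc over WT, 0.20 in ΔS6:c-Myc over ΔS6 and 0.24 in ΔS6:c-Myc relative to Alb-c-Myc, and it serves as a yardstick for single genes that is not a replicate error. In bulk liver RNA, more cells of a type and more RNA per cell cannot be told apart.

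All arrays had the profile of liver, with albumin (Alb) at 15.38 to 15.46 and a median of 14.55 to 14.85 over 11 hepatocyte markers. The WT array stood apart from the other 3 in ways its label does not give. Xist, which silences an X chromosome in females, was at 11.84 on the WT array and at 5.88 to 6.33 on the others. The 8 measured pancreas markers had a median of 7.02 in ΔS6:c-Myc, 6.63 in ΔS6, 7.69 in Alb-c-Myc and 9.59 in WT. The part of these RNAs in the ratios over WT was not tested, and those ratios are given together with ratios that do not use the WT array.

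The cytosolic chaperonin, called CCT or TRiC, is a double ring of related subunits that encloses newly made proteins and lets them fold, and actin and tubulin are its best known clients. The proteasome is a barrel, the 20S core, whose outer alpha rings gate the entrance and whose inner beta rings hold the cutting sites. The 19S regulatory particle sits on its end, binds proteins tagged with ubiquitin, removes the tag and uses ATP to unfold and feed them in. Fast-growing cells are known to hold much chaperonin.

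The mRNAs of the chaperonin were higher in ΔS6:c-Myc liver than in any other liver. All 8 subunits were highest on the ΔS6:c-Myc array, against 22.8% of all genes. For 7 of the 8, every one except Cct8, the arrays stood in the order ΔS6:c-Myc, ΔS6, Alb-c-Myc and WT from high to low, an order found in 6.32% of all genes and in 10.1% of the 9042 genes with a mean of at least 8.

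Tcp1, the alpha subunit that gave the complex its older name, had a log2 level of 13.00 in ΔS6:c-Myc, 12.42 in ΔS6, 12.31 in Alb-c-Myc and 12.07 in WT. Cct7, the eta subunit, had 12.32 in ΔS6:c-Myc, 11.82 in ΔS6, 11.66 in Alb-c-Myc and 11.43 in WT. Cct5, the epsilon subunit, had 12.92 in ΔS6:c-Myc, 12.55 in ΔS6, 12.24 in Alb-c-Myc and 12.04 in WT. These 3 had the highest ratios of all 57 members in ΔS6:c-Myc over WT, at 1.91-fold for Tcp1, 1.85-fold for Cct7 and 1.84-fold for Cct5.

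Cct4, the delta subunit, followed the same order with 12.92 in ΔS6:c-Myc, 12.57 in ΔS6, 12.31 in Alb-c-Myc and 12.06 in WT. Cct3, the gamma subunit, had 13.00 in ΔS6:c-Myc, 12.65 in ΔS6, 12.50 in Alb-c-Myc and 12.29 in WT. Among these genes the ΔS6 array lay closer to Alb-c-Myc than to ΔS6:c-Myc. Cct2, the beta subunit, had 12.83 in ΔS6:c-Myc, 12.66 in ΔS6, 12.48 in Alb-c-Myc and 12.19 in WT, with steps that were more even. Cct6a, the zeta subunit, had 13.01 in ΔS6:c-Myc, 12.73 in ΔS6, 12.57 in Alb-c-Myc and 12.38 in WT. Cct8, the theta subunit, had 11.82 in ΔS6:c-Myc, 11.56 in ΔS6, 11.39 in Alb-c-Myc and 11.46 in WT, so that Alb-c-Myc was the lowest array for this gene alone.

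**Figure D1:**
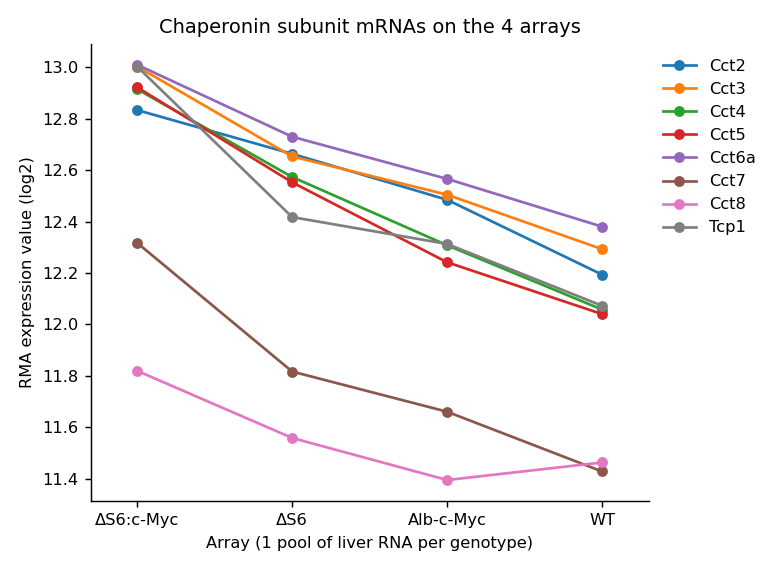
RMA expression values (log2, vertical axis) of the 8 chaperonin subunit genes on the 4 arrays (horizontal axis, 1 pool of liver RNA per genotype). Each line joins the values of 1 gene, and levels of different genes are not comparable because they come from different probes. All 8 lines have their highest point in ΔS6:c-Myc, and Cct8 has its lowest in Alb-c-Myc.

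Set over WT, the 8 subunits had a median ratio (log2) of 0.78 in ΔS6:c-Myc (0.36 to 0.93), 0.37 in ΔS6 (0.10 to 0.52) and 0.22 in Alb-c-Myc (-0.07 to 0.29). All 8 were above 0 in ΔS6:c-Myc (48.2% of all genes) and in ΔS6 (43.9%), and 7 in Alb-c-Myc (50.6%). The medians of all genes were -0.01 in ΔS6:c-Myc, -0.05 in ΔS6 and 0.0033 in Alb-c-Myc. In ΔS6:c-Myc 7 of the 8 reached 1.5-fold, against 8.97% of all genes and 13.7% of those with a mean of at least 8, while none reached it in ΔS6 (13.8% of all genes) or in Alb-c-Myc (1.59%). No member reached 2-fold in any comparison by its brightest probe set. The share of all genes that did was 7.24% higher and 2.54% lower in ΔS6 over WT, 0.418% higher and 0.335% lower in Alb-c-Myc over WT, and 3.00% higher and 1.80% lower in ΔS6:c-Myc over WT. It was 0.769% higher and 4.29% lower in ΔS6:c-Myc over ΔS6, and 1.99% higher and 1.36% lower in ΔS6:c-Myc relative to Alb-c-Myc.

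The direction held without the WT array. Relative to Alb-c-Myc, all 8 ratios of ΔS6:c-Myc were above 0 (48.0% of all genes), with a median of 0.55 (0.35 to 0.69). Tcp1, Cct5, Cct7 and Cct4 passed 1.5-fold, against 6.82% of all genes. Over ΔS6 all 8 ratios of ΔS6:c-Myc were again above 0 (57.9% of all genes), with a median of 0.35 (0.17 to 0.59), and Tcp1 passed 1.5-fold, against 4.00% of all genes. ΔS6 over Alb-c-Myc, which puts the transgenic liver in place of WT as the reference, gave a median of 0.16 (0.10 to 0.31), with all 8 above 0 (42.6% of all genes). That is smaller than the 0.37 obtained over WT.

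The transgene was accompanied by a larger ratio in the deleted liver than in the intact one for most subunits. The log2 ratio of ΔS6:c-Myc over ΔS6 exceeded that of Alb-c-Myc over WT in 7 of 8 subunits, with a median excess of 0.15, the exception being Cct2 at -0.12. Over all genes this excess was above 0 in 54.8%, with a median of 0.03. The difference was not tested.

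Of the 8 chaperonin subunits, 5 had more than 1 bright probe set, while Tcp1 and Cct5 had 1 probe set each and Cct8 had 1 of mean 8 or more, so the ratios of these 3 rest on a single probe set. Cct2, Cct3, Cct4, Cct6a and Cct7 had 15 probe sets with a mean of at least 8 among them, and within each gene these shared a sign in all 5 comparisons. Their ratios in ΔS6:c-Myc over WT ran from 0.23 to 1.06, and both ends lie outside the range of the brightest probe sets.

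**Figure D2:**
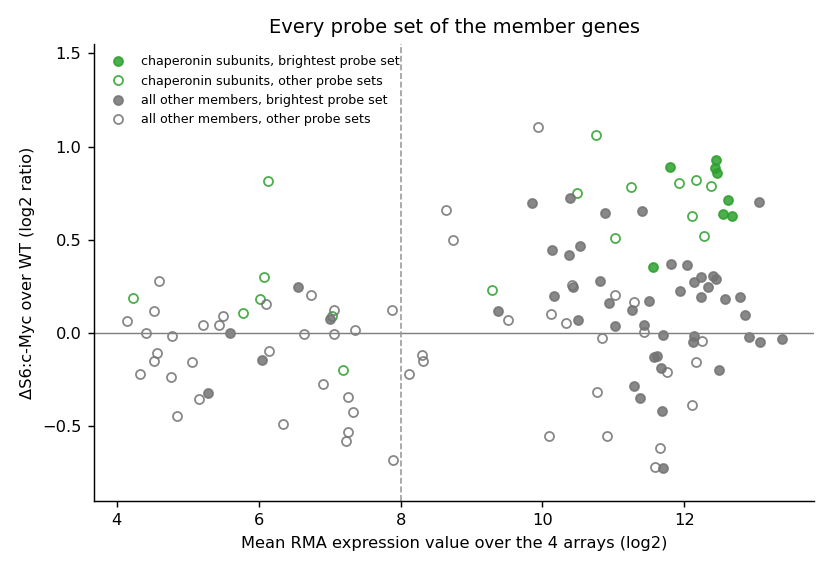
Log2 ratio of ΔS6:c-Myc over WT (vertical axis) against the mean RMA expression value over the 4 arrays (log2, horizontal axis) for all 127 probe sets of the member genes. Green marks chaperonin subunits, grey the other members, filled circles the brightest probe set of a gene, and the dashed line a mean of 8. The filled green circles lie between 0.36 and 0.93.

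The sequences upstream of Cct7 and Tcp1 are shown because these 2 chaperonin genes had the highest ratios in ΔS6:c-Myc over WT, and those of Psme3 and Psmb5 because they are proteasome genes described further on whose upstream sequences hold motifs these 2 lack. Each run is the 250 bases before the annotated start in RefSeq, build GRCm38.p6, written 5′ to 3′ on the strand of the gene. Capitals mark matches, on either strand, to CACGTG (the E-box that Myc and Max bind), CCAAT (the NF-Y box), TGACNNNGC (the core of the antioxidant response element, bound by Nfe2l1 and Nfe2l2) or GAANNTTC (the core of the heat shock element). Cct7 lies at chr6:85451255-85451504 on the plus strand, Tcp1 at chr17:12916079-12916328 on the plus strand, Psme3 at chr11:101315963-101316212 on the plus strand and Psmb5 at chr14:54617996-54618245 on the minus strand.
Cct7: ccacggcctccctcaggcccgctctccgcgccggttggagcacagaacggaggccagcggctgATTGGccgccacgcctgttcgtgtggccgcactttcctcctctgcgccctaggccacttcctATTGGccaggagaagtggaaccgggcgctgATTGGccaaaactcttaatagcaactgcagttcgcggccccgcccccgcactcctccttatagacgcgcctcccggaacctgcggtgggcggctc
Tcp1: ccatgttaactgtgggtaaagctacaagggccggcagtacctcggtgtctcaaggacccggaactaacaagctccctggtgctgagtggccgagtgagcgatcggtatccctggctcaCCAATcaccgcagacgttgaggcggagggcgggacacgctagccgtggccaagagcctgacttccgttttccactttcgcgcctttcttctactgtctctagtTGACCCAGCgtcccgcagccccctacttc
Psme3: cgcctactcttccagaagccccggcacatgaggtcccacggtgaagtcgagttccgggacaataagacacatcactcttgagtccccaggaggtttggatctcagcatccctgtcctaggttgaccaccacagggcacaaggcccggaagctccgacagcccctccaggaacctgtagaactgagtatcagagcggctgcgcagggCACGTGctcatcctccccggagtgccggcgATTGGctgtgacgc
Psmb5: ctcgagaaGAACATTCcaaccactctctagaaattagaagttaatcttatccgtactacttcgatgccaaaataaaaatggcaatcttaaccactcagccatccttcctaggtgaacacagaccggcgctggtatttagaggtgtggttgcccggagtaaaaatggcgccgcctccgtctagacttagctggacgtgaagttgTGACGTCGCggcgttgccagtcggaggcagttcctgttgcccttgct

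Of the 57 members, 48 have an upstream window in the RefSeq table, 7 of them chaperonin subunits and 25 of them subunits of the proteasome. CACGTG was found upstream of 0 of 7 chaperonin subunits and 1 of 25 proteasome subunits (Psma4), against 6.86% of 27025 genes. CCAAT was found upstream of 4 of 7 chaperonin subunits (Cct3, Cct6a, Cct7 and Tcp1) and 10 of 25 proteasome subunits, against 37.5% of genes. TGACNNNGC was found upstream of 3 of 7 chaperonin subunits (Cct2, Cct6a and Tcp1) and 4 of 25 proteasome subunits (Psmb5, Psmb6, Psmc6 and Psmd12), against 11.5%, and GAANNTTC upstream of 1 (Cct2) and 1 (Psmb5), against 7.73%. A match describes the letters in the window and is not a measured binding site.

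The subunits of the proteasome itself stayed close to their WT levels in ΔS6 liver. Over the 31 member subunits of the core and the regulatory particle, the log2 ratio in ΔS6 over WT ran from -0.39 to 0.82, and only Psmd8 reached 1.5-fold. Counted over all 57 members, 1 was at least 1.5-fold higher and 0 were lower, against 13.8% higher and 7.06% lower among all genes. In Alb-c-Myc over WT 0 of 57 passed the line in either direction, against 1.59% higher and 0.951% lower. In ΔS6:c-Myc over WT 12 of 57 were higher and 1 was lower, against 8.97% and 5.20%, and 7 of those 12 were chaperonin subunits. The other 5 were Psmd8, Psme3, Psmg1, Psmg3 and Psmg4. When each gene took the mean of all its probe sets, dim ones included, 6 were higher. The highest array was ΔS6:c-Myc for 33 of the 57 members, against 22.8% of all genes.

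Small ratios leaned one way in Alb-c-Myc liver, where 27 of the 31 proteasome subunits were below 0 over WT, as were 49.1% of all genes, with a median of -0.06. With the deletion present, 20 of 31 were above 0 in ΔS6:c-Myc over ΔS6, a share near the 57.9% of all genes. Their median there was 0.08, against 0.05 for all genes. For 26 of the 31 the ratio that came with the transgene was higher in the deleted than in the intact liver, as it was for 54.8% of all genes, and this difference was not tested.

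**Figure D3:**
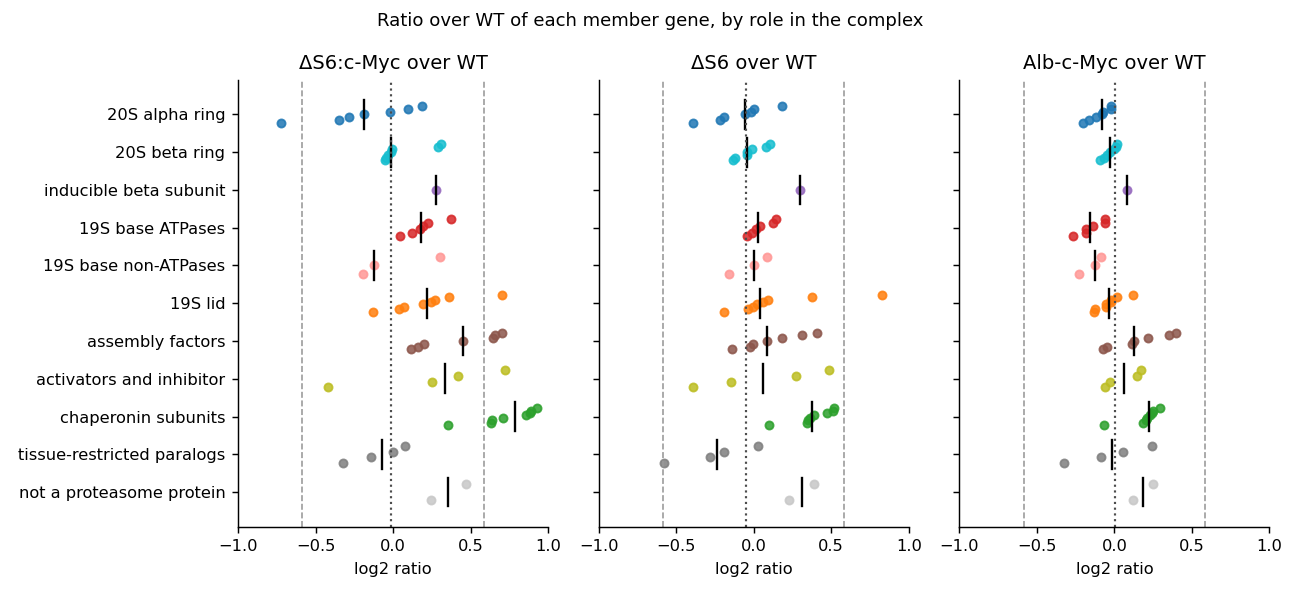
Log2 ratio over WT (horizontal axis) of each of the 57 member genes, grouped by role (vertical axis), in ΔS6:c-Myc, ΔS6 and Alb-c-Myc liver from left to right. Points are genes, short black bars the median of a group, dashed lines 1.5-fold (0.585) and the dotted line the median of all genes. The chaperonin medians are 0.78 in ΔS6:c-Myc, 0.37 in ΔS6 and 0.22 in Alb-c-Myc, and the 20S beta ring medians lie just below 0 in all 3.

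In the 20S core, 13 of 14 subunits were within 1.5-fold of WT on every array, and the alpha ring gene Psma5 was the exception. Psma5 had a log2 level of 11.26 in ΔS6:c-Myc, 11.59 in ΔS6, 11.96 in Alb-c-Myc and 11.98 in WT. It was lower in both deleted livers and almost equal on the 2 arrays with intact Rps6. Its ratio was -0.72 in ΔS6:c-Myc over WT and -0.70 in ΔS6:c-Myc relative to Alb-c-Myc, and no other member was lower by 1.5-fold in either, against 5.20% and 4.28% of all genes. With the mean of all its probe sets Psma5 did not reach 1.5-fold relative to Alb-c-Myc. The next brightest probe set of Psma5 gave 11.14 in ΔS6:c-Myc, 11.51 in ΔS6, 11.83 in Alb-c-Myc and 11.86 in WT.

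The other alpha ring genes lay lower by less or not at all. Psma1 had 11.19 in ΔS6:c-Myc, 11.48 in ΔS6, 11.33 in Alb-c-Myc and 11.53 in WT, which gave -0.35 in ΔS6:c-Myc over WT. Psma7 had -0.28 in the same comparison and -0.32 by its other bright probe set. Psma6 was higher by its brightest probe set (0.18) and not by its other bright one (-0.04). The 7 alpha ring genes had a median of -0.19 in ΔS6:c-Myc over WT, -0.06 in ΔS6 over WT and -0.08 in Alb-c-Myc over WT, and in the last comparison all 7 were below 0, as were 49.1% of all genes.

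In the beta ring, the genes of the 3 cutting subunits did not share 1 pattern. Psmb5, which cuts after hydrophobic residues, had 12.66 in ΔS6:c-Myc, 12.45 in ΔS6, 12.30 in Alb-c-Myc and 12.37 in WT. Psmb6, which cuts after acidic residues, had 12.62 in ΔS6:c-Myc, 12.42 in ΔS6, 12.26 in Alb-c-Myc and 12.31 in WT. Both had their highest value in ΔS6:c-Myc and ratios of 0.29 and 0.31 over WT. Psmb7, which cuts after basic residues, had 13.39 in ΔS6:c-Myc, 13.29 in ΔS6, 13.39 in Alb-c-Myc and 13.42 in WT, so its 4 arrays differed by 0.14 at most. By their brightest probe sets, the other 4 beta genes, Psmb1 to Psmb4, had ratios between -0.12 and 0.02 over WT on all 3 arrays. The other bright probe set of Psmb4 gave -0.39 in ΔS6:c-Myc, -0.19 in ΔS6 and -0.22 in Alb-c-Myc over WT. That of Psmb3 gave -0.21 in ΔS6:c-Myc, -0.24 in ΔS6 and -0.15 in Alb-c-Myc over WT.

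The subunits that replace these in the immunoproteasome, a form made in immune cells and under interferon, did not share the sign of their ratios. Psmb10, which takes the place of Psmb7, had 10.92 in ΔS6:c-Myc, 10.94 in ΔS6, 10.72 in Alb-c-Myc and 10.64 in WT. Psmb8, which takes the place of Psmb5 and is not a member here, had 9.77 in ΔS6:c-Myc, 10.86 in ΔS6, 10.36 in Alb-c-Myc and 10.56 in WT. Psmb9, which takes the place of Psmb6 and was named after its values were seen, had 9.65 in ΔS6:c-Myc, 10.21 in ΔS6, 10.21 in Alb-c-Myc and 10.47 in WT. Psmb8 and Psmb9 were the only genes of 12 measured on a list of the immunoproteasome and antigen presentation that were lower by 1.5-fold or more in ΔS6:c-Myc over WT, and none was higher. Of all genes, 5.20% were lower and 8.97% higher by as much in this comparison. The median of that list was -0.16 in ΔS6:c-Myc over WT, 0.17 in ΔS6 over WT and -0.10 in Alb-c-Myc over WT. Among its other members, Irf1, an interferon-responsive transcription factor, had 0.41 in ΔS6 over WT, the class I gene H2-D1 had 0.32 and Nlrc5, an activator of class I genes, had 0.27.

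The 17 member genes of the 19S regulatory particle had a higher median ratio than the core in ΔS6:c-Myc liver, and 16 of the 17 were within 1.5-fold of WT there. Their median in ΔS6:c-Myc over WT was 0.19, against -0.03 for the 14 genes of the core, and in ΔS6:c-Myc relative to Alb-c-Myc it was 0.30, against -0.01 for the core. In ΔS6 over WT the medians were 0.02 for the regulatory particle and -0.05 for the core. Sem1, a small subunit of the regulatory particle that the symbol rule leaves out, was lower in ΔS6:c-Myc. Its ratio was -0.25 in ΔS6:c-Myc over WT and -0.24 in ΔS6:c-Myc relative to Alb-c-Myc. The difference between the particles was not tested.

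The 6 ATPase genes of the base, which unfold the substrate, had the same shape on the 4 arrays. Psmc5 had a log2 level of 12.10 in ΔS6:c-Myc, 11.87 in ΔS6, 11.54 in Alb-c-Myc and 11.73 in WT. Psmc4 had 11.69 in ΔS6:c-Myc, 11.54 in ΔS6, 11.26 in Alb-c-Myc and 11.52 in WT. Psmc2 had 12.40 in ΔS6:c-Myc, 12.25 in ΔS6, 12.07 in Alb-c-Myc and 12.21 in WT. In these and in Psmc1, Psmc3 and Psmc6 the highest array was ΔS6:c-Myc and the lowest was Alb-c-Myc.

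All 6 ATPase genes thus lay below 0 in Alb-c-Myc over WT (median -0.16, from -0.26 to -0.06) and above 0 in ΔS6:c-Myc over ΔS6 (median 0.14, from 0.08 to 0.23), a combination of signs shown by 26.3% of all genes. In ΔS6:c-Myc relative to Alb-c-Myc their median was 0.32 (0.10 to 0.55). None of these ratios reached 1.5-fold. Of 9 ATPase probe sets with a mean of at least 8, 9 were below 0 in Alb-c-Myc over WT and 8 were above 0 in ΔS6:c-Myc over ΔS6. The remaining one belongs to Psmc6, which had -0.55 by that probe set and 0.04 by its brightest one in ΔS6:c-Myc over WT.

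**Figure D4:**
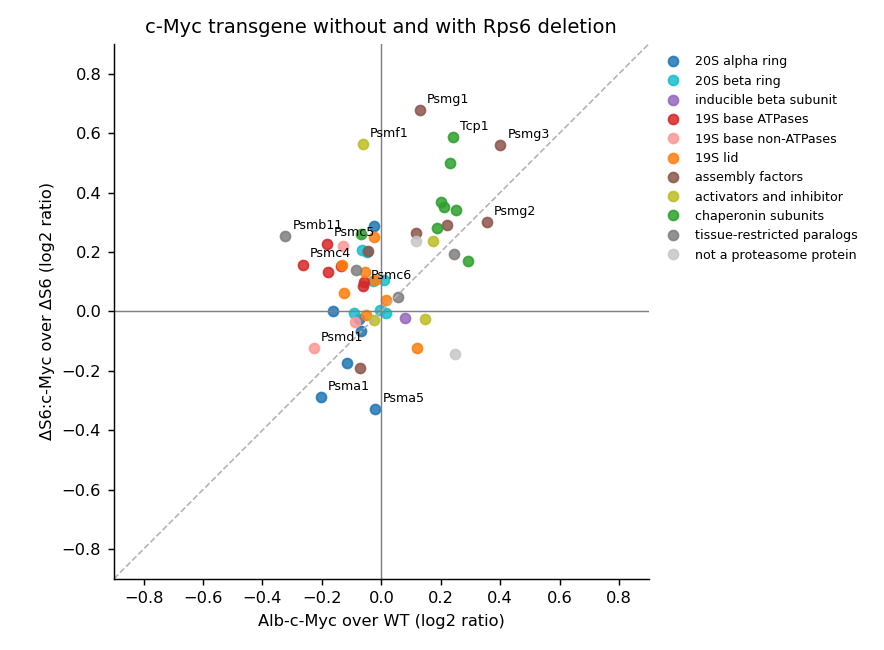
Log2 ratio of ΔS6:c-Myc over ΔS6 (vertical axis) against that of Alb-c-Myc over WT (horizontal axis) for the 57 members, 1 point per gene, coloured by role, with a dashed line of equal ratios. The 2 ratios share no array. The 6 red ATPase points lie left of 0 and above 0, and 7 of the 8 green chaperonin points lie right of 0 and above 0.

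Among the non-ATPase genes of the base, Psmd4, a receptor for ubiquitin, had the array order of the ATPases by its brightest probe set, with 12.47 in ΔS6:c-Myc, 12.25 in ΔS6, 12.04 in Alb-c-Myc and 12.16 in WT. Of its 2 other bright probe sets, 1 gave 0.42 and the other, the dimmest, gave -0.16 in ΔS6:c-Myc relative to Alb-c-Myc, where the brightest gave 0.43. The scaffold genes Psmd1 and Psmd2 did not have that order. Psmd1 had 11.58 in ΔS6:c-Myc, 11.70 in ΔS6, 11.48 in Alb-c-Myc and 11.70 in WT, and Psmd2 had ratios of -0.20 in ΔS6:c-Myc over WT and -0.11 in ΔS6:c-Myc relative to Alb-c-Myc.

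Psmd8, a structural subunit of the lid, had the largest increase of any member in ΔS6 liver. It had a log2 level of 13.34 in ΔS6:c-Myc, 13.47 in ΔS6, 12.76 in Alb-c-Myc and 12.64 in WT, so both deleted livers were above both livers with intact Rps6. This was 1.77-fold in ΔS6 over WT, and the log2 ratio was 0.70 for ΔS6:c-Myc over WT and 0.58 in ΔS6:c-Myc relative to Alb-c-Myc. Psmd8 was measured by 1 probe set.

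Psmd14, the lid enzyme that removes the ubiquitin chain, had the same shape at smaller size, with 12.23 in ΔS6:c-Myc, 12.24 in ΔS6, 11.82 in Alb-c-Myc and 11.87 in WT. By their brightest probe sets, the other 6 member genes of the lid, Psmd3, Psmd6, Psmd7, Psmd11, Psmd12 and Psmd13, had ratios between -0.19 and 0.27 over WT on all 3 arrays. The other bright probe set of Psmd6 gave -0.55 in Alb-c-Myc over WT, where its brightest gave -0.02. In ΔS6:c-Myc relative to Alb-c-Myc it gave 0.60, past 1.5-fold, where the brightest gave 0.30.

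**Figure D5:**
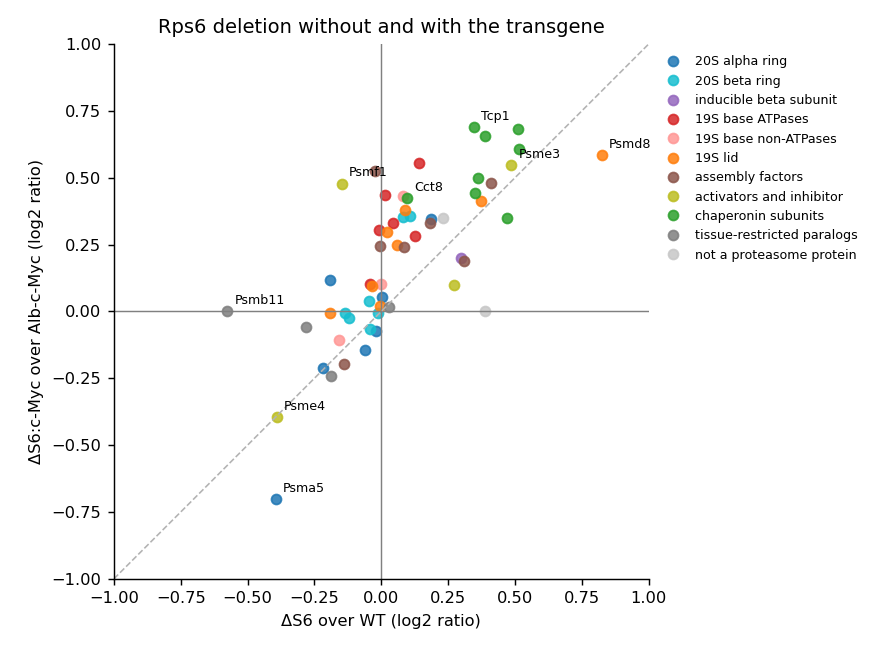
Ratio of ΔS6:c-Myc relative to Alb-c-Myc (log2, vertical axis) against that of ΔS6 over WT (horizontal axis) for the 57 members, 1 point per gene, coloured by role, with a dashed line of equal ratios. The 2 ratios share no array. Psmd8 (0.82 and 0.58, horizontal and vertical) and Psma5 (-0.39 and -0.70) lie far from 0 on both axes, and all 8 chaperonin points are above 0 on both.

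The 7 member genes of proteasome assembly had a median of 0.45 in ΔS6:c-Myc over WT, against 0.07 for the 31 member subunits of the proteasome. Pomp, an assembly factor that the symbol rule leaves out, went the other way. It had 12.19 in ΔS6:c-Myc, 12.31 in ΔS6, 12.54 in Alb-c-Myc and 12.58 in WT. Its ratio was -0.39 in ΔS6:c-Myc over WT and -0.35 in ΔS6:c-Myc relative to Alb-c-Myc. Psmg1 to Psmg4 encode the chaperones that build the alpha ring, and they act as the pairs Psmg1 with Psmg2 and Psmg3 with Psmg4. Psmg3 had 11.25 in ΔS6:c-Myc, 10.69 in ΔS6, 11.00 in Alb-c-Myc and 10.60 in WT, and its 0.40 in Alb-c-Myc over WT was the highest ratio of any member there. Psmg2 had 11.00 in ΔS6:c-Myc, 10.70 in ΔS6, 11.19 in Alb-c-Myc and 10.84 in WT, and its 0.36 was the second highest. Psmg1 had 11.86 in ΔS6:c-Myc, 11.18 in ΔS6, 11.34 in Alb-c-Myc and 11.21 in WT, and stood apart on the ΔS6:c-Myc array only. Its 0.68 (log2) in ΔS6:c-Myc over ΔS6 was the highest ratio of any member, and with Tcp1 (0.59) it was 1 of 2 members past 1.5-fold there, against 4.00% of all genes, while none was lower by as much (9.35%).

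Psmg4 was ordered like the chaperonin subunits, with 10.22 in ΔS6:c-Myc, 9.93 in ΔS6, 9.74 in Alb-c-Myc and 9.52 in WT. Psmg1, Psmg3 and Psmg4 reached 1.5-fold in ΔS6:c-Myc over WT, with 0.66, 0.64 and 0.70, and Psmg2 did not (0.16). None of the 3 factors that help to assemble the base reached it, with 0.45 for Psmd5, 0.20 for Psmd9 and 0.12 for Psmd10, also called gankyrin, in that comparison. Psmd10 was highest in ΔS6, with 9.40 in ΔS6:c-Myc, 9.59 in ΔS6, 9.21 in Alb-c-Myc and 9.28 in WT.

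The genes of 2 alternative caps of the proteasome had ratios of opposite sign. Psme3, the gene of the nuclear activator PA28 gamma, had 10.76 in ΔS6:c-Myc, 10.53 in ΔS6, 10.22 in Alb-c-Myc and 10.04 in WT, and its other bright probe set had 10.48 in ΔS6:c-Myc, 10.14 in ΔS6, 9.72 in Alb-c-Myc and 9.38 in WT. By both probe sets its arrays stood in the order of the chaperonin subunits, and the dimmer of them was past 2-fold in ΔS6:c-Myc over WT. Psme4, the gene of the activator PA200, had 11.48 in ΔS6:c-Myc, 11.51 in ΔS6, 11.87 in Alb-c-Myc and 11.90 in WT. Its values were lower in both deleted livers, with -0.42 in ΔS6:c-Myc over WT and -0.39 both in ΔS6 over WT and in ΔS6:c-Myc relative to Alb-c-Myc.

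Psmf1, which encodes PI31, a protein first described as a proteasome inhibitor, had 10.74 in ΔS6:c-Myc, 10.17 in ΔS6, 10.26 in Alb-c-Myc and 10.32 in WT. Its ΔS6:c-Myc array was the highest by all 3 of its bright probe sets, but its ratio in ΔS6 over WT was -0.15 by the brightest of them and 0.38 and 0.27 by the others. Psme1, the gene of the interferon-inducible activator PA28 alpha, had 12.41 in ΔS6:c-Myc, 12.44 in ΔS6, 12.31 in Alb-c-Myc and 12.16 in WT. The probe set that the annotation assigns to both Psme2 and Psme2b, the beta partner of Psme1 and a close relative, is not a member by the rule and had 11.52 in ΔS6:c-Myc, 11.63 in ΔS6, 11.53 in Alb-c-Myc and 11.52 in WT.

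The remaining 6 members are not subunits of the liver complexes. Psma8 and Cct6b are paralogs used in testis, Psmb11 is used in the thymus, Cct8l1 is a relative of Cct8, and Psmc3ip is a meiotic recombination gene that shares only the prefix. These 5 had mean values below 8, the lowest 5.28, and no measure of background was at hand to say whether they were detected. Psmb11 had the lowest ratio of any member in ΔS6 over WT (-0.58), from values of 5.26 in ΔS6:c-Myc, 5.01 in ΔS6, 5.26 in Alb-c-Myc and 5.58 in WT, and Cct6b had 5.59 in ΔS6:c-Myc, 5.40 in ΔS6, 5.83 in Alb-c-Myc and 5.59 in WT. Psme3ip1, the gene of a partner protein of Psme3, was brighter, with 10.80 in ΔS6:c-Myc, 10.56 in ΔS6, 10.45 in Alb-c-Myc and 10.33 in WT.

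Bright probe sets of 1 gene did not always go the same way. Of 22 members with more than 1 probe set of mean 8 or more, these shared a sign in 17 for ΔS6 over WT, 18 for Alb-c-Myc over WT, 17 for ΔS6:c-Myc over WT, 16 for ΔS6:c-Myc over ΔS6 and 16 for ΔS6:c-Myc relative to Alb-c-Myc. Some of the disagreements were not small, as for Psmc6 above and for Psmd11, whose bright probe sets ran from -0.09 to 0.44 in ΔS6:c-Myc relative to Alb-c-Myc.

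Prefoldin hands unfolded actin and tubulin to the chaperonin, and phosducin-like proteins assist it. Of 9 such genes, all measured, 3 were at least 1.5-fold higher in ΔS6:c-Myc over WT and 0 lower (median 0.26, against 8.97% and 5.20% of all genes). In ΔS6 over WT 3 were higher and 0 lower (median 0.21, against 13.8% and 7.06%). In Alb-c-Myc over WT 0 passed in either direction (median -0.05, against 1.59% and 0.951%). The prefoldin gene Pfdn4 had 9.65 in ΔS6:c-Myc, 9.73 in ΔS6, 9.47 in Alb-c-Myc and 9.04 in WT. Another prefoldin gene, Vbp1, had 9.98 in ΔS6:c-Myc, 10.36 in ΔS6, 9.71 in Alb-c-Myc and 9.72 in WT. Both were highest in ΔS6 rather than in ΔS6:c-Myc. Pfdn6, also a prefoldin gene, was highest in ΔS6:c-Myc, with 11.97 there, 11.36 in ΔS6, 11.28 in Alb-c-Myc and 11.30 in WT. Its 0.67 in ΔS6:c-Myc over WT was the highest ratio of the 9 genes in that comparison. Pdcl3, a phosducin-like gene, had 10.04 in ΔS6:c-Myc, 10.04 in ΔS6, 9.14 in Alb-c-Myc and 9.45 in WT, and Pfdn1 had 0.50 in ΔS6:c-Myc over WT and 0.46 in ΔS6 over WT.

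Of the 12 measured genes of its main clients, 1 (Tubb4b) stood in the array order of the chaperonin, near the 6.32% of all genes. Of 12 measured actin and tubulin genes of 14 listed, 9 were at least 1.5-fold higher and 0 lower in ΔS6 over WT, against 13.8% and 7.06% of all genes, with a median of 1.66. In ΔS6:c-Myc over WT 6 were higher and 0 lower, against 8.97% and 5.20%, with a median of 0.70. Over ΔS6, 5 were lower in ΔS6:c-Myc and 0 higher (median -0.48, against 9.35% and 4.00% of all genes), where all 8 chaperonin subunits had ratios above 0. The tubulin gene Tubb5 had 11.69 in ΔS6:c-Myc, 12.87 in ΔS6, 11.31 in Alb-c-Myc and 10.83 in WT. Tubb6 had 10.14 in ΔS6:c-Myc, 10.75 in ΔS6, 8.83 in Alb-c-Myc and 8.14 in WT. Tubb2a, another tubulin gene, had 12.71 in ΔS6:c-Myc, 12.84 in ΔS6, 9.33 in Alb-c-Myc and 10.28 in WT. Tuba8 had 1.82 in ΔS6:c-Myc over WT and 2.45 in ΔS6 over WT.

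For the partners of the proteasome the counts of higher genes were near those of all genes in ΔS6 and ΔS6:c-Myc over WT, but not relative to Alb-c-Myc. Of 29 listed genes for ubiquitin, shuttles, deubiquitinases, assembly and transcription control, 17 were measured under a single symbol. In ΔS6 over WT 2 were at least 1.5-fold higher, Nfe2l2 and Rad23b, and 0 lower (median 0.0040, against 13.8% and 7.06% of all genes). In ΔS6:c-Myc over WT 2 were higher, Rad23b and Uchl5, and 0 lower (median 0.16, against 8.97% and 5.20%). Relative to Alb-c-Myc, 4 were higher in ΔS6:c-Myc, Rad23b, Uchl5, Ufd1 and Akirin2, and 0 lower (median 0.06, against 6.82% and 4.28%). Nfe2l1, the transcription factor that raises proteasome genes when the proteasome is inhibited, had 10.05 in ΔS6:c-Myc, 9.87 in ΔS6, 10.44 in Alb-c-Myc and 10.44 in WT. Nfe2l2, the related factor of the oxidative stress response, had 11.78 in ΔS6:c-Myc, 11.92 in ΔS6, 11.36 in Alb-c-Myc and 11.22 in WT. The ratios of these 2 factors thus had opposite signs in both deleted livers. Rad23b, which carries ubiquitinated proteins to the proteasome, had 12.97 in ΔS6:c-Myc, 12.65 in ΔS6, 12.18 in Alb-c-Myc and 12.05 in WT, the order of the chaperonin subunits, and Ufd1, which works with the segregase p97, had 0.56 in ΔS6:c-Myc over WT.

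The summed levels of markers of bile duct cells, macrophages, neutrophils and dividing cells were highest in ΔS6 liver. The summed linear level of 7 measured bile duct and progenitor markers was 2051 in ΔS6:c-Myc, 22480 in ΔS6, 808 in Alb-c-Myc and 837 in WT, that of 12 macrophage markers was 17192 in ΔS6:c-Myc, 50457 in ΔS6, 10159 in Alb-c-Myc and 11647 in WT, and that of 9 neutrophil markers was 986 in ΔS6:c-Myc, 24127 in ΔS6, 909 in Alb-c-Myc and 1012 in WT. None of these markers stood in the array order of the chaperonin subunits, an order found in only 6.32% of all genes. Members that were also highest in ΔS6 include Psmd8, Psmd10, Psmd14, Psme1 and Psmb10. In ΔS6:c-Myc over ΔS6 the marker medians were -3.38 for bile duct, -1.35 for macrophages and -2.25 for neutrophils, while the 8 chaperonin subunits had ratios above 0 in that comparison. The 5 measured B cell markers had a median of -0.08 and the 5 T cell markers of -0.03 in ΔS6 over WT. Of 13 markers of dividing cells, 11 were at least 1.5-fold higher in ΔS6:c-Myc over WT, 13 in ΔS6 over WT and 7 in Alb-c-Myc over WT (against 8.97%, 13.8% and 1.59% of all genes), with medians of 1.10 in ΔS6:c-Myc, 1.85 in ΔS6 and 0.59 in Alb-c-Myc. The part of these cells in the ratios of the members was not tested.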

How the data were processed

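Total RNA of 4 liver pools was measured on Affymetrix mouse GeneChips. The authors made the deposited log2 values with RMA and then quantile normalization. RMA and affy are the tools in the submitters' processing notes, with no version in the sources used here. Array medians were 6.85 to 6.88. Probe intensities and detection calls were not used here, and the number of arrays limits the precision.

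Of 45101 probe sets, 34958 have 1 gene symbol in the platform annotation, 932 have several and 9211 have none, and only the first kind was used. All 57 member genes were found in the RefSeq table of GRCm38.p6, which changed 0 of their symbols. The members, the gene lists and the comparisons were chosen with earlier results of these data known. Named with values were the 3 highest and 3 lowest members of each of 5 comparisons, the 3 cutting subunits, Psmb10 and the 8 chaperonin subunits. Up to 4 genes of each related list were also named, those with the largest ratio in ΔS6 over WT or Alb-c-Myc over WT. Other members and other genes of these lists were named after their values were seen. No test was run. Spread among the probe sets of each gene was taken over 3379 genes and 8477 probe sets of mean 8 or more. Counting was checked on simulated arrays. Alternatives were median-centring, renewed quantile normalization, other probe set choices, a filter on dim genes, subunits only, a 2-fold line and Alb-c-Myc as the reference. Python 3.11.15, numpy 2.4.6, pandas 2.3.3 and matplotlib 3.10.9 were used.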

Additional observations from a re-analysis of the deposited data

Results flagged for a closer look

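By their brightest probe sets, the 6 ATPase genes of the proteasome base had ratios of opposite sign in the 2 backgrounds, a combination shown by 26.3% of all genes. With the transgene, their median log2 ratio was 0.14 in the deleted liver (ΔS6:c-Myc over ΔS6) and -0.16 in the intact liver (Alb-c-Myc over WT), with all 6 genes on their side of 0 in both. Psmc5 alone had 0.23 in ΔS6:c-Myc over ΔS6 and -0.18 in Alb-c-Myc over WT, both larger than the spread between probe sets of 1 gene. The ATPase median of 0.14 in ΔS6:c-Myc over ΔS6 was smaller than that spread, which was 0.20 there. Another bright probe set of Psmc6 gave -0.10 in the same comparison. The ratios of Alb-c-Myc over WT use the WT array, which stood apart from the others. The dim Psmb11 had 0.25 in ΔS6:c-Myc over ΔS6 and -0.32 in Alb-c-Myc over WT, from values below 6. These differences were not tested, since each genotype has 1 array.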

How the results depend on the processing

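Over the alternatives run, the chaperonin median ran from 0.57 to 0.78 in ΔS6:c-Myc over WT (0.68 as reported, over 10 genes). The 0.78 came from settings that left out dim genes or kept subunits only, which drop Cct6b and Cct8l1. With all 10 genes kept the highest was 0.72, with quantile normalization run again. The proteasome median ran from 0.07, with subunits only, to 0.18 (0.17 as reported, over 47 genes). Of 72 comparisons of counts, 62 stayed within 1.5 times, and these include comparisons in which both counts were 0. With a 2-fold line, 0 members were higher or lower in any comparison. With the mean over all probe sets, members at least 1.5-fold higher in ΔS6:c-Myc over WT numbered 6 and not 12, and those lower in ΔS6:c-Myc relative to Alb-c-Myc numbered 0 and not 1. Centring each array on its median gave 1 member lower in ΔS6 over WT in place of 0, and subunits only gave 1 higher in ΔS6:c-Myc over ΔS6 in place of 2, since Psmg1 is not a subunit. The lowest member in ΔS6 over WT as reported was the dim Psmb11, at -0.5764 and just short of 1.5-fold. The dimmest probe set of Psma5, with a mean of 5.16, gave -0.06 in ΔS6:c-Myc relative to Alb-c-Myc. The part of single probe sets in the other moves was not tested. When ΔS6 was set against Alb-c-Myc rather than WT, the chaperonin median was 0.16 in place of 0.36 over all 10 chaperonin genes. No paired analysis was possible because each genotype has 1 array.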

Other observations

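Among other folding machines, some genes had the array order of the cytosolic chaperonin and others did not. Of 15 measured cytosolic heat shock genes of 17 listed, 3 were at least 1.5-fold higher and 3 lower in ΔS6:c-Myc over WT (median -0.09, against 8.97% and 5.20% of all genes), and 1 was higher and 2 were lower in ΔS6 over WT (median -0.16, against 13.8% and 7.06%). Cdc37, Dnaja2, Hsp90aa1 and Hspa4, 4 of the 15, stood in the order ΔS6:c-Myc, ΔS6, Alb-c-Myc and WT from high to low, against 6.32% of all genes; these 4 were picked out after their values were seen. The inducible Hsp70 gene Hspa1b had 9.22 in ΔS6:c-Myc, 10.27 in ΔS6, 11.64 in Alb-c-Myc and 11.30 in WT. The Hsp110 gene Hsph1 had 10.42 in ΔS6:c-Myc, 10.18 in ΔS6, 11.29 in Alb-c-Myc and 11.04 in WT. Both were lower in the deleted livers. The small heat shock gene Hspb1 was high in ΔS6 alone, with 9.96 in ΔS6:c-Myc, 10.95 in ΔS6, 10.01 in Alb-c-Myc and 10.10 in WT. The Hsp90 gene Hsp90aa1 had 12.48 in ΔS6:c-Myc, 12.34 in ΔS6, 12.11 in Alb-c-Myc and 11.89 in WT.

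Of 10 mitochondrial chaperones and proteases, 1 was at least 1.5-fold higher and 0 lower in ΔS6:c-Myc over WT (against 8.97% and 5.20% of all genes). In ΔS6 over WT 0 passed in either direction (median -0.13, against 13.8% and 7.06% of all genes). Hspa9 and Lonp1, 2 of the 10, stood in the order of the chaperonin subunits, against 6.32% of all genes. In ΔS6:c-Myc over ΔS6 all 10 were above 0 (median 0.36), against 57.9% of all genes. Hspa9, the mitochondrial Hsp70, had 13.47 in ΔS6:c-Myc, 13.11 in ΔS6, 12.87 in Alb-c-Myc and 12.81 in WT. Trap1, the mitochondrial Hsp90, had -0.33 in ΔS6 over WT and 0.70 in ΔS6:c-Myc over ΔS6, Dnaja3 had -0.43 and 0.40, and Clpx, a protease component, had 0.07 and 0.11.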
